A study of Mus musculus with 11 samples.

Results

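The Meg3 locus of mouse chromosome 12 carries a dense group of microRNA genes, and 60 of them were followed here through 11 RNA sequencing libraries. They were chosen as every gene of the deposited table whose symbol is Mir followed by a digit and which lies in an interval of chromosome 12 that runs from just before Meg3 to just beyond Mirg. The first of them starts at 109544541 and the last ends at 109747960 (build GRCm38). That is 60 of the 55487 Ensembl genes in the table. The libraries came from C57BL/6 mice that were heterozygous for Morc2a p.S87L, so that a wild-type allele was still present, or wild-type at Morc2a. There were 3 libraries of S87L spinal cord against 3 of wild-type spinal cord, and 2 libraries of S87L fetal fibroblasts (MEF, primary cells cultured from fetuses) against 3 of wild-type MEF. MORC2A is an ATPase that acts on chromatin together with the HUSH complex, a silencer of genes, and variants of it in neuropathy are the subject of the study. Age and sex are not given in the sources. Nothing in the labels ties the libraries of a group to separate animals or cultures, so p-values cover just the scatter of these libraries, and that may be technical.

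The locus is imprinted. Long noncoding RNAs (Meg3, Rian and Mirg), small nucleolar RNAs and the microRNAs are transcribed from the maternal chromosome, while the protein-coding genes Dlk1, Rtl1 and Dio3 are expressed from the paternal one. A microRNA is cut by Drosha and Dgcr8 out of a long primary transcript as a hairpin, exported by Xpo5, trimmed by Dicer1 and loaded into an Argonaute protein, where its seed (bases 2 to 8) chooses the target. Several microRNAs of the locus are known from neurons, among them miR-134, which represses Limk1 in dendrites of rat neurons. The libraries were made from total RNA with a kit for long RNA, so a read over a microRNA gene is a piece of the RNA that passes through the hairpin, and the mature microRNA was not measured on its own.

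The 60 features are short, from 49 to 124 bases with a median of 80, and add up to 4909 bases. On the plus strand, that of Meg3, lie 57 of them, and 3 lie on the minus strand. Hairpins for 57 of the 60 were found in RefSeq (GRCm38.p6), and all 57 had the start and end of the annotated gene. RefSeq also gave 112 mature sequences for the 60 features, with 102 distinct seeds. Shown first are the mature sequences found for the 7 features whose spinal cord call, S87L against wild-type, held in every alternative run. They are written 5′ to 3′, with the seed in capitals, and for Mir376c a single sequence was found.
miR-341-5p: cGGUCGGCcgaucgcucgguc
miR-341-3p: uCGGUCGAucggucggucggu
miR-1188-5p: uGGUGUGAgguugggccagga
miR-1188-3p: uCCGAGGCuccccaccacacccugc
miR-380-5p: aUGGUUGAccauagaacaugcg
miR-380-3p: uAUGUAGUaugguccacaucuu
miR-323-5p: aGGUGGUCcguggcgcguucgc
miR-323-3p: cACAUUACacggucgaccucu
miR-667-5p: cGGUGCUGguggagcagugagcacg
miR-667-3p: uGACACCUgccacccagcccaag
miR-376c-5p: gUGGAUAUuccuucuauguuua
miR-544-5p: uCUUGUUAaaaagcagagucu
miR-544-3p: aUUCUGCAuuuuuagcaagcuc
The 13 seeds differ from each other. The reads are pieces of the RNA that passes through a hairpin, and neither the cut hairpin nor the mature microRNA was measured on its own. The hairpin of Mir1188, the feature with the most reads, is shown with its mature sequences in capitals (chr12:109611822-109611941, plus strand).
Mir1188 hairpin: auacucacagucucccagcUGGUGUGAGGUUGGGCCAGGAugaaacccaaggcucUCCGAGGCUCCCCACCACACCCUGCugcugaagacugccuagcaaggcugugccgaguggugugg

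For some features, among them Mir376c, Mir487b, Mir539 and Mir485, just a single mature sequence was found, so shared seeds can be missed. Among the 112 sequences found, 10 seeds are shared by a pair. Of these pairs 5 are shown, so that the counts of features with a common seed can be set side by side. They are the GGUAGAC seed of miR-379 and miR-1193, the AUGUAAC seed of miR-379 and miR-411, the UGGAUAU seed of miR-376c and miR-376b, the GGUUGAC seed of miR-1197 and miR-758, and the GGUUGCC seed of miR-453 and miR-496a.
miR-379-5p: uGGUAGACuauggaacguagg
miR-1193-5p: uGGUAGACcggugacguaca
miR-379-3p: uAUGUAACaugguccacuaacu
miR-411-3p: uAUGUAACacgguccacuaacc
miR-376c-5p: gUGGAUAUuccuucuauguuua
miR-376b-5p: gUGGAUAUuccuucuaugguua
miR-1197-5p: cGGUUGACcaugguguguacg
miR-758-5p: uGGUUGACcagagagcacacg
miR-453: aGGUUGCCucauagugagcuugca
miR-496a-5p: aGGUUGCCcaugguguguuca
In spinal cord, Mir379 had 1 read over the 3 S87L libraries, against 8 over the wild-type ones, while Mir411 had 1 against 5 and Mir1193 had 3 against 3. Mir376c had 1 read in S87L cord, against 17 in wild-type cord, and Mir376b 0 against 2. In S87L cord Mir758 had 1 read, against 13 in wild-type cord, Mir1197 2 against 5, Mir453 10 against 16 and Mir496a 2 against 6. The partners' counts were too low in most pairs to set them against each other.

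Depth, as the reads recovered from the deposited values, was 19.4 to 23.5 M in S87L and 15.4 to 18.97 M in wild-type spinal cord libraries. It was 12.1 to 14.5 M in S87L and 14.3 to 15.1 M in wild-type MEF libraries. Against these totals the features were rare. They held 1088 reads in all, and 36 of the 60 reached 10 reads over the 11 libraries, 14 had 1 to 9 reads (70 reads together) and 10 had none. Intervals below are exact Poisson intervals at 95% and cover counting error only. Summed neuronal, oligodendrocyte and astrocyte markers were far higher in the cord than in the MEF libraries. Of 5 oligodendrocyte markers, Mobp and Mog were at 0 in all 5 MEF libraries. The 4 microglia markers summed to 101.1 to 102.5 FPKM in wild-type MEF, above the 90.7 to 98.9 FPKM in wild-type cord. By limma 3 of these 4 were higher in wild-type cord and 1 lower. In S87L MEF they summed to 78.9 to 84.9 FPKM, below the S87L cord libraries. In MEF 7 fibroblast markers summed to 3289 to 3577 FPKM in S87L and 3822 to 3842 FPKM in wild-type libraries.

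Pooled over the 60 features, the features were less abundant in spinal cord of S87L mice than of wild-type mice. The S87L cord libraries had 69, 79 and 70 reads, which is 3.38 (interval 2.63 to 4.27), 3.36 (2.66 to 4.18) and 3.61 (2.81 to 4.56) RPM, reads per M recovered reads. The wild-type cord libraries had 261, 178 and 173 reads, which is 13.8 (12.1 to 15.5), 11.5 (9.84 to 13.3) and 11.3 (9.65 to 13.1) RPM. The S87L libraries lay close together and every one was below every wild-type library, with no overlap of the intervals. The means were 3.45 ± 0.140 RPM in S87L and 12.2 ± 1.39 RPM in wild-type cord (SD, n = 3 each), a ratio of 0.283 and a log2 difference of -1.82. In an S87L cord library 24 to 31 features had a read, against 38 to 44 in a wild-type one. That number falls with the total of reads, so it is no separate result. Since the features were chosen with earlier results known, the pooled level carries no p-value.

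In MEF the pooled level was lower in S87L as well, by less. The S87L MEF libraries had 35 and 36 reads, or 2.42 (1.69 to 3.37) and 2.98 (2.09 to 4.13) RPM. The wild-type MEF libraries had 69, 55 and 63 reads, or 4.82 (3.75 to 6.10), 3.85 (2.90 to 5.01) and 4.18 (3.22 to 5.35) RPM. Both S87L libraries lay below all 3 wild-type libraries, but the intervals of single libraries overlapped. The ratio of means was 0.630 (log2 -0.67), from 2.70 ± 0.396 RPM (SD, n = 2) in S87L and 4.28 ± 0.494 RPM (SD, n = 3) in wild-type MEF. In each S87L MEF library 20 features, not the same ones, had a read, against 25 to 29 in a wild-type one.

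**Figure D1:**
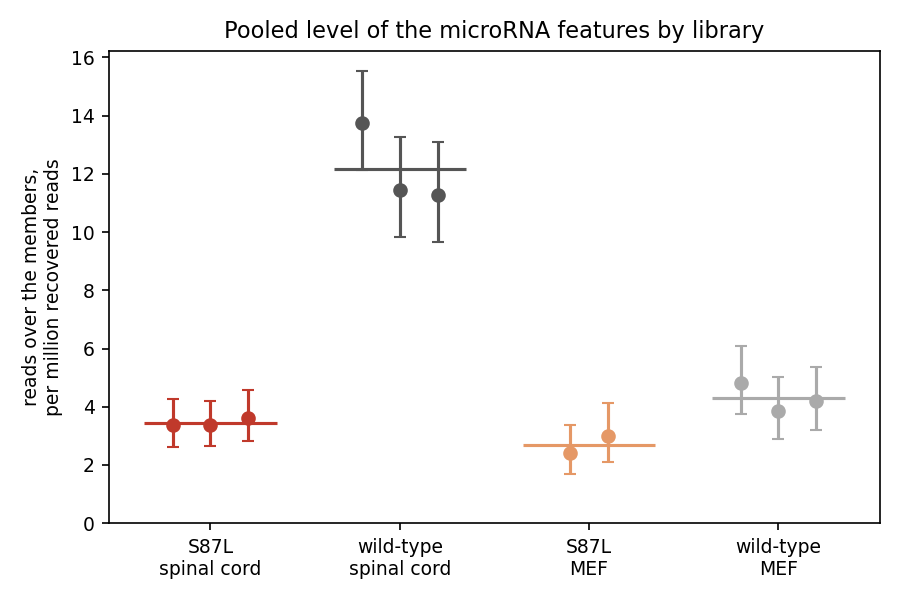
Reads over the 60 microRNA features in RPM, reads per M recovered reads (vertical axis), one point per library in each of the 4 groups on the horizontal axis. Vertical lines are exact Poisson 95% intervals and horizontal lines are group means. The 3 S87L cord libraries sit between 3.36 and 3.61, below the wild-type cord libraries at 11.3 to 13.8, and the S87L MEF libraries (2.42 and 2.98) lie below the wild-type MEF libraries (3.85 to 4.82).

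Without the variant, the features were more abundant in cord than in MEF. Wild-type spinal cord held 12.2 ± 1.39 RPM over the features and wild-type MEF 4.28 ± 0.494 (SD, n = 3 each), a ratio of 2.84 with no overlap of libraries. The 1119 microRNA features elsewhere in the genome showed a ratio of 2.61 in that comparison. Cell types and culture differ between the tissues and cannot be told apart.

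Which features were read depended on their place. Of the 12 features that overlap an exon of another gene on their own strand, 8 had no read, and the 12 held 14 reads in all. These 8 are Mir1906-1 and Mir770 in exons of Meg3, Mir134, Mir668, Mir485, Mir377 and Mir410 in exons of Mirg, and Mir3071 in that of Rtl1. Of the 48 without such an overlap only Mir882 and Mir299b had none. HTSeq, which the submitters name, leaves out by default a read that falls on several genes, and its settings here are not given in the sources. A count of 0 for miR-134's gene is therefore no measure of that microRNA. The 3 minus-strand features held 1 read together, while the 12 plus-strand features that lie opposite an exon held 330. Mir136 (24 reads) and Mir3071 (0 reads) cover nearly the same bases on opposite strands.

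The positions also divide the features into segments, a division made after their values were seen and described without a test. Lengths were pooled within a segment, so levels are per length, in FPKM. The 8 features between Meg3 and Rtl1 had a pooled FPKM of 0.687 ± 0.128 in S87L and 3.19 ± 1.23 in wild-type cord (ratio 0.216). The 7 features that run across Rtl1 had 1.85 ± 0.141 in S87L and 3.89 ± 0.722 in wild-type cord (ratio 0.475). The S87L libraries lay below the wild-type ones in both segments, and the segment across Rtl1 had the ratio closest to 1 of the 5 segments with reads.

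Farther along, the 3 features inside Rian had the highest level, at 3.06 ± 0.220 FPKM in S87L and 9.35 ± 1.36 FPKM in wild-type cord (ratio 0.328). The 26 features between Rian and Mirg, where the miR-379 cluster begins, had 0.322 ± 0.0523 FPKM in S87L and 2.10 ± 0.203 FPKM in wild-type cord (ratio 0.154). The 14 features within Mirg had 0.404 ± 0.169 FPKM in S87L and 1.06 ± 0.0335 FPKM in wild-type cord (ratio 0.382; SD, n = 3 throughout). No S87L cord library reached the wild-type range in any of these segments. Many features within Mirg lie in its exons, where reads that fall on several genes may be left out. The level per length within Mirg may thus be too low to set beside the other segments. The 2 features within Meg3 had no read in any library. In MEF the ratios of S87L over wild-type, in the same order from Meg3 to Mirg, were 0.807, 0.588, 0.665, 0.468 and 0.831, and the libraries overlapped in the first and the last of these.

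**Figure D2:**
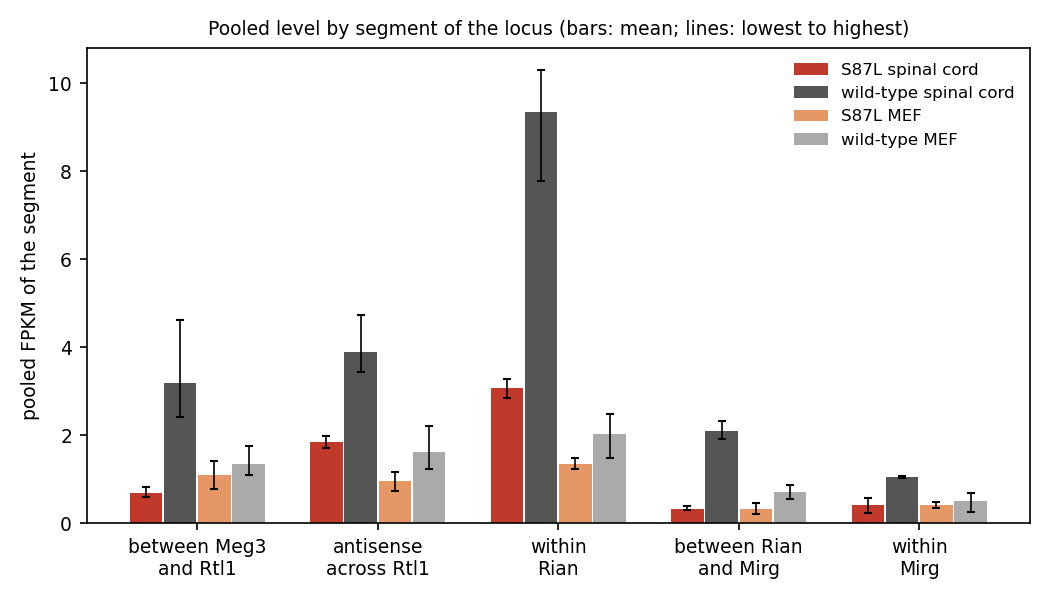
Pooled FPKM (vertical axis) of the microRNA features in 5 segments of the locus in order along the chromosome (horizontal axis), with bars for group means and lines from the lowest to the highest library. In spinal cord the S87L bar is below the wild-type bar in all 5 segments, from a ratio of 0.154 between Rian and Mirg to 0.475 across Rtl1. In MEF the libraries of both genotypes overlap between Meg3 and Rtl1 and within Mirg.

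For single features, each comparison was fitted with limma on log2(FPKM + 0.5), leaving out genes whose mean FPKM was under 0.5. A gene counts as called where the Benjamini-Hochberg adjusted p, taken over the whole fit, was under 0.05. Each fold change is the S87L minus the wild-type mean of log2(FPKM + 0.5), which understates the change of low genes. Libraries with a few reads can agree more closely than counting error allows for, as the 6, 6 and 6 reads of Mir544 in wild-type cord do. The limma SEs and p-values of such features need not cover that error and can be too small. In spinal cord 41 of the 60 features were tested, and 23 were called lower. Of all 15648 genes tested, 7.71% were called lower. None of the 41 was called higher, at the adjusted threshold, at an unadjusted p under 0.05 or with voom on the recovered reads, against 5.17% of all genes. In 26 of the 41 the FPKM of every S87L library was below every wild-type one, against 21.3% of all genes. In some of these the read counts met or overlapped. Mir453 had 2, 4 and 4 reads in S87L, against 7, 4 and 5, and Mir434 9, 11 and 7, against 14, 13 and 10. There the greater depth of the S87L cord libraries set the order. The median log2 fold change was -1.42, or -1.40 with the features at 0 in S87L set to their bound, against -0.02 over all genes. All 41 had a wild-type mean of at least 0.5 FPKM and 21 an S87L mean under it, so these 21 passed the filter through wild-type and had to differ. The called features among these 21 were Mir380, Mir323, Mir376c, Mir667, Mir758, Mir540, Mir376a, Mir300, Mir329, Mir666, Mir673, Mir539 and Mir411. Counting all features instead, 49 had a read in cord, and the mean RPM was lower in S87L in 46 of them and higher in 3. Of the 23 calls, 12 were also made under every other setting that tested the feature. That was 9 settings for 11 of them and 8 for Mir329, which was not tested with a filter at a mean FPKM of 1. Mir434, Mir127 and Mir541 lost theirs with voom, and Mir3070a, Mir493, Mir666, Mir432, Mir453, Mir673, Mir539 and Mir411 under at least 3 settings. Among the 1119 microRNA features elsewhere, 103 were tested in cord, 24 were called lower and 0 higher by limma, and the median was -0.67.

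The most abundant features were Mir1188 and Mir341, which lie next to each other between exons of Rian. Mir1188 (109611822 to 109611941) had 5.08, 3.67 and 4.02 FPKM in S87L cord, against 15.2, 10.7 and 13.7 FPKM in wild-type cord. Its log2 fold change was -1.52 (SE 0.15, limma adjusted p = 0.00131). Mir341 (109611500 to 109611595) had 3.71, 4.13 and 4.46 FPKM in S87L cord, against 12.1, 10.6 and 13.5 FPKM in wild-type cord, a log2 fold change of -1.45 (SE 0.10, adjusted p = 3.51e-04). For both, the highest S87L library stood below the lowest wild-type one by more than the spread within either group. Both calls held with any library left out, at adjusted p-values up to 0.0158 and 0.00341.

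Between Rian and Mirg, 12 of the 21 tested features were lower, against 7.71% of all genes tested in cord. Mir544 (109729325 to 109729402) had 1, 2 and 1 reads in the S87L cord libraries, against 6, 6 and 6 in the wild-type ones (log2 fold change -2.04, SE 0.15, limma adjusted p = 4.33e-04). Mir380 (109711803 to 109711863) had no read in S87L cord, against 2, 2 and 3 reads in wild-type cord. Mir323 (109712508 to 109712593) had none either, against 2, 3 and 5 reads. Set against a floor of 3 reads over the S87L group, Mir380 was at least 2.97-fold and Mir323 at least 4.24-fold lower (adjusted p = 4.62e-04 and 0.00292). Mir376c (109722718 to 109722803) had 0, 1 and 0 reads in S87L cord, against 8, 4 and 5 in wild-type cord (log2 fold change -2.83, SE 0.29, adjusted p = 0.00183). Mir667 had 1, 1 and 0 reads in S87L, against 5, 5 and 3 in wild-type cord (-2.09, SE 0.29, adjusted p = 0.00580). These 5 kept their call with any library left out and under the 9 other settings, as did Mir341 and Mir1188. Mir380, Mir323, Mir376c and Mir667 had S87L means under 0.5 FPKM and passed the filter through wild-type, so they had to differ.

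The other 7 calls of that segment were each lost when a certain library was left out. Mir758 had 0, 0 and 1 reads in S87L cord, against 3, 5 and 5 in wild-type cord, and its adjusted p was 0.00714, or 0.0536 without S87L replicate 2. Mir376a had 0, 0 and 1 reads, against 4, 2 and 6 (0.0142, and up to 0.0855 without wild-type replicate 1 or S87L replicate 1 or 2). Mir300 had 0, 2 and 0 reads, against 8, 9 and 3 (0.0146, and up to 0.0834 without either of wild-type replicates 1 and 2 or S87L replicate 1 or 3). In none of these did the read counts of the genotypes overlap. Mir329 (1, 0 and 0 reads, against 2, 3 and 2) lost its call without wild-type replicate 2 or S87L replicate 2 or 3, at up to 0.0642. Mir666 (1, 1 and 0 reads, against 2, 2 and 2) lost it without any wild-type library or S87L replicate 2, at up to 0.0839. Mir539 (0, 2 and 0 reads, against 2, 9 and 5) lost it without any library but wild-type replicate 1, at up to 0.157, and Mir411 (0, 0 and 1 reads, against 2, 2 and 1) without any but S87L replicate 3, at up to 0.147. The log2 fold changes of these 7 ran from -1.19 for Mir666 to -2.86 for Mir300. All 7 had S87L means under 0.5 FPKM and passed the filter through wild-type, so they had to differ.

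The remaining features of the segment with at least 10 reads were not called. Mir487b, at 2, 2 and 6 reads in S87L and 5, 2 and 4 in wild-type cord, differed least (log2 fold change -0.47, adjusted p = 0.499). Mir494, Mir1197, Mir381, Mir379 and Mir654 had fold changes of -0.87, -0.74, -1.06, -1.53 and -1.45 with adjusted p-values of 0.257 to 0.489. The libraries of the genotypes overlapped in all 6, so no difference beyond the replicate spread was detectable at these counts.

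**Figure D3:**
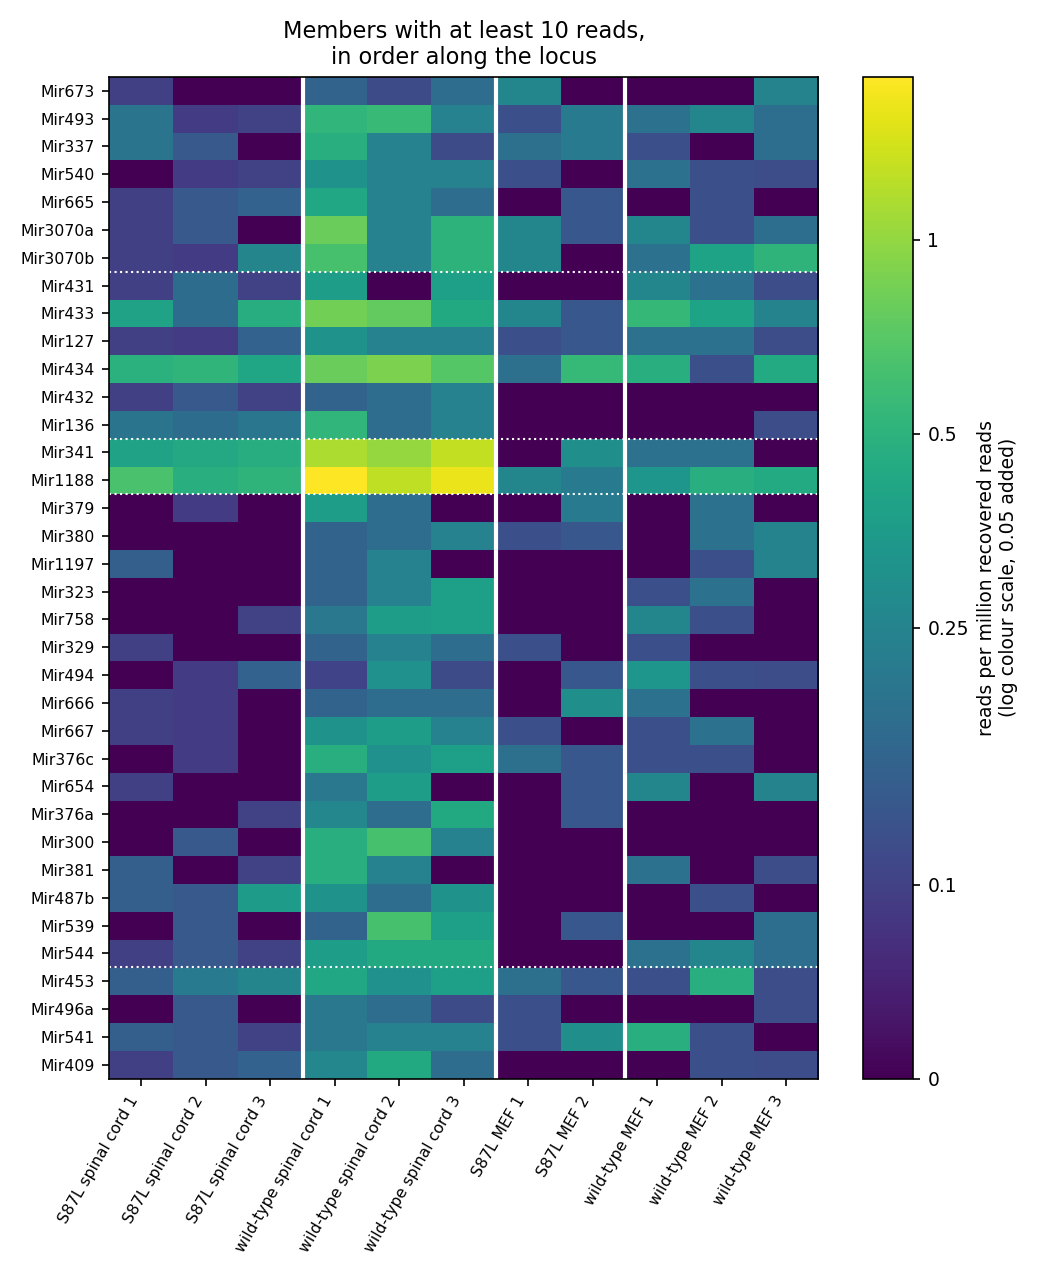
RPM, reads per M recovered reads (colour, log scale with 0.05 added) of the 36 features with at least 10 reads, in order along the locus from top to bottom, in each of the 11 libraries. Dotted lines part the segments and solid lines the groups. The 3 wild-type cord columns are the brightest, with Mir341 and Mir1188 the brightest rows, and many features between Rian and Mirg are at 0 in the S87L cord columns.

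The 6 plus-strand features across Rtl1 lie antisense to its exon, so their mature sequences are complementary to the Rtl1 messenger RNA. Rtl1 is a retrotransposon-derived gene and a reported target of miR-127, miR-136, miR-431, miR-433 and miR-434 in mouse. A search of the annotated Rtl1 transcript found the full complement of 11 mature sequences, from 6 features (Mir431, Mir433, Mir127, Mir434, Mir432 and Mir136). For miR-127 and miR-136 the microRNA is shown with its site in Rtl1 below it, the letters that pair with the seed in capitals, since Rtl1 is measured beside them.
miR-127-3p: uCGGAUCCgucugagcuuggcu
Rtl1 site of miR-127-3p: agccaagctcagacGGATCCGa
miR-136-5p: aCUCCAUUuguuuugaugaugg
Rtl1 site of miR-136-5p: ccatcatcaaaacaAATGGAGt
Mir434 had 9, 11 and 7 reads in S87L cord, against 14, 13 and 10 in wild-type cord, or 4.87, 5.15 and 3.99 FPKM, against 8.22, 9.35 and 7.27 FPKM (log2 fold change -0.76, SE 0.11, limma adjusted p = 0.00651). Mir127 had 0.726, 0.629 and 1.53 FPKM in S87L, against 3.94, 2.90 and 2.93 FPKM in wild-type cord (-1.40, SE 0.22, adjusted p = 0.00940). The S87L libraries of both were below every wild-type one, and both calls held with any library left out but not with voom on the recovered reads (adjusted p = 0.0980 and 0.0544). Mir432 was called too (1, 2 and 1 reads, against 2, 2 and 3, adjusted p = 0.0352), and lost its call without either of wild-type replicates 2 and 3 or S87L replicate 1 or 3, at up to 0.115.

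Mir433, Mir136 and Mir431 of the same stretch were not called. Mir433 had 2.87, 1.07 and 3.46 FPKM in S87L cord, against 6.68, 6.00 and 3.30 FPKM in wild-type cord (log2 fold change -1.03, adjusted p = 0.117). Mir136 had 3, 3 and 3 reads in S87L, against 9, 2 and 3 in wild-type cord (-0.62, adjusted p = 0.320), and Mir431 had 1, 3 and 1 reads, against 6, 0 and 5 (-0.66, adjusted p = 0.632). The genotypes overlapped in all 3. Rtl1 itself was low, at 0.416, 0.457 and 0.354 FPKM in S87L cord, against 0.486, 0.606 and 0.494 FPKM in wild-type cord, with every S87L library below the wild-type ones. Its mean in cord was under the filter on low values, so it had no test.

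Between Meg3 and Rtl1, 4 of the 7 tested features were lower, against 7.71% of all genes tested in cord. Among the called, Mir540 and Mir673 had S87L means under 0.5 FPKM. They passed the filter through wild-type, so they had to differ. Mir540 had 0, 1 and 1 reads in S87L cord, against 5, 3 and 3 in wild-type cord (log2 fold change -2.09, SE 0.34, limma adjusted p = 0.00997, up to 0.0556 without wild-type replicate 1 or 2). Mir3070a had 1, 2 and 0 reads, against 14, 3 and 7 (-2.52, adjusted p = 0.0209, up to 0.0848 unless the library left out was wild-type replicate 2). Mir493 had 3, 1 and 1 reads, against 9, 8 and 3 (-1.87, adjusted p = 0.0258, up to 0.131 without either of wild-type replicates 1 and 2 or S87L replicate 2 or 3). In these 3 the FPKM of the genotypes did not overlap. Mir673 (1, 0 and 0 reads, against 2, 1 and 2) had an adjusted p of 0.0361, up to 0.124 without any library but S87L replicate 1. Mir3070b, Mir665 and Mir337 were not called, with fold changes of -1.76, -1.10 and -1.14 and limma adjusted p-values of 0.0562, 0.0602 and 0.281. The hairpins of Mir3070a and Mir3070b are nearly the same, so a read may not be assigned to either with certainty. The call of Mir3070a alone is no sign that they differ.

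Within Mirg 5 of the 14 features were tested and 2 were lower, against 7.71% of all genes tested in cord. Mir541 had 2, 2 and 1 reads in S87L cord, against 3, 3 and 3 in wild-type cord (log2 fold change -0.92, SE 0.15, limma adjusted p = 0.0109), and was not called with voom on the recovered reads (0.173). Mir453 had 2, 4 and 4 reads, against 7, 4 and 5 (-0.90, adjusted p = 0.0360, up to 0.127 without any library but S87L replicate 3). Mir154 (0, 2 and 0 reads, against 2, 2 and 3) was not called, at -1.81 and an adjusted p of 0.0536. Mir409 and Mir496a were not called either, at -1.20 and -1.43 with adjusted p-values of 0.0555 and 0.0935.

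The long transcripts of the locus were also lower in S87L cord, by differing amounts. Meg3, read far more deeply than any microRNA feature, had 38.1, 38.4 and 38.6 FPKM in S87L cord, against 93.9, 92.4 and 89.7 FPKM in wild-type cord (log2 fold change -1.25, SE 0.03, limma adjusted p = 1.08e-05). Mirg had 1.0035, 1.12 and 0.955 FPKM in S87L, against 2.29, 2.29 and 2.11 FPKM in wild-type cord (-0.84, SE 0.08, adjusted p = 0.00101). Rian, which contains Mir341 and Mir1188, had 10.6, 10.7 and 11.4 FPKM in S87L, against 12.5, 13.3 and 13.1 FPKM in wild-type cord. Its log2 fold change was -0.25 (SE 0.05, adjusted p = 0.0160, up to 0.0714 without either of wild-type replicates 2 and 3 or S87L replicate 1 or 2). No library of the genotypes overlapped in these 3 transcripts. Dlk1, a paternally expressed ligand of the Notch family, was not called in cord (11.8, 11.6 and 10.97 FPKM, against 11.1, 10.2 and 10.6 FPKM, adjusted p = 0.201).

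As ratios of mean FPKM in cord, the pooled microRNA features stood at 0.281, Meg3 at 0.417, Mirg at 0.461 and Rian at 0.837. Pooled microRNA FPKM was 1.90% ± 0.0686 of Meg3 FPKM in S87L and 2.82% ± 0.265 in wild-type cord (SD, n = 3 each). Against Rian it was 6.70% ± 0.0485 in S87L and 20.1% ± 2.96 in wild-type cord. In both ratios the S87L libraries lay below every wild-type one. The measures are unlike. FPKM of Meg3, Mirg and Rian are per length of their exons. Of the 1088 reads over the microRNA features, 14 lay over features that overlap a same-strand exon. The ratios thus set RNA mostly outside exons beside RNA of exons. Whether the features fell more than the transcripts that carry them was not tested. Small RNA features outside the locus were lower in S87L cord as well. The 1119 other microRNA features had 103 ± 2.07 RPM in S87L and 164 ± 6.25 in wild-type cord (ratio 0.629), and the 1484 other snoRNA features had 14.8 ± 0.765 RPM in S87L and 22.6 ± 1.32 in wild-type cord (ratio 0.654; SD, n = 3 each). The 23 snoRNA features of the locus had 0.376 ± 0.166 RPM in S87L and 1.06 ± 0.0817 in wild-type cord (ratio 0.354). The part of this wider difference in that of the locus was not tested.

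**Figure D4:**
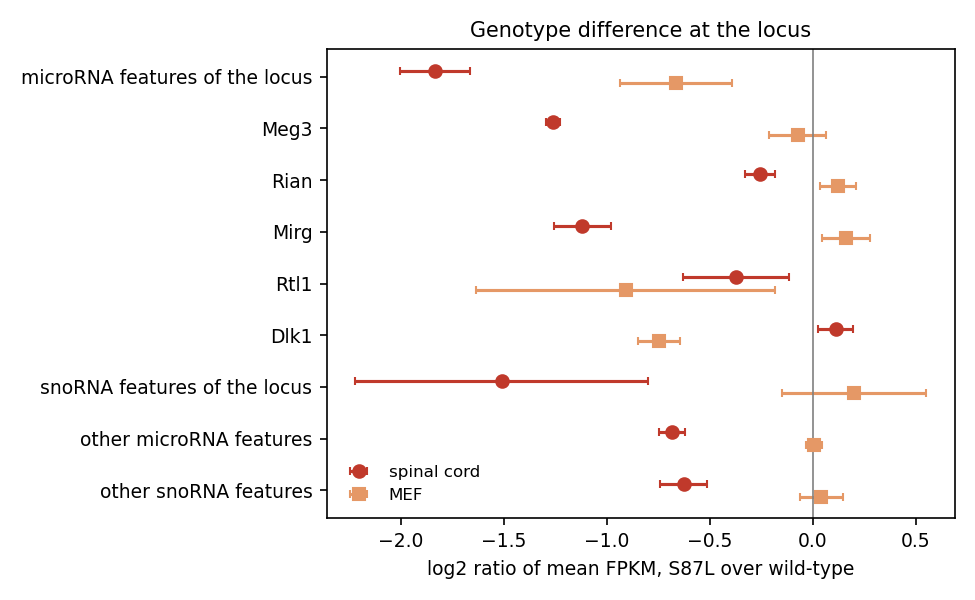
Log2 ratio of mean FPKM, S87L over wild-type (horizontal axis), for the pooled microRNA features, the other transcripts of the locus and small RNA features elsewhere (rows), in spinal cord and in MEF. Lines show the SD of the log2 values of both groups combined (square root of the summed variances). In cord the microRNA features (-1.83) lie left of the locus snoRNA features (-1.51), Meg3 (-1.26), Mirg (-1.12), Rtl1 (-0.37) and Rian (-0.26). They also lie left of the other microRNA features (-0.68). In MEF Rtl1 (-0.91, at low FPKM), Dlk1 (-0.75) and the microRNA features (-0.66) lie left of 0, while Meg3 is at -0.07. Levels of the long transcripts are per exon length, while the microRNA feature reads lie mostly outside same-strand exons.

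Markers of other cells differed between the cord groups too. All 10 skeletal muscle markers were called higher in S87L cord, and their summed FPKM was 72.9 to 77.8 in S87L and 14.3 to 18.9 in wild-type libraries. Of 6 meningeal markers 4 were called higher (sum 35.9 to 36.7 in S87L, 17.0 to 18.7 in wild-type), and none of either list was at 0. Of 7 fibroblast markers 5 were called higher and 1 lower (sum 200.04 to 201.39 in S87L, 199.73 to 204.89 in wild-type), and of 4 microglia markers 2 were called higher (sum 109.4 to 117.6 in S87L, 90.7 to 98.9 in wild-type). Of 4 astrocyte markers 1 was called lower (sum 1001 to 1022 in S87L, 1017 to 1073 in wild-type). The 10 neuronal markers summed to 1699 to 1751 FPKM in S87L and 1773 to 1784 FPKM in wild-type cord, with 3 called lower. The 5 oligodendrocyte markers summed to 2861 to 3023 FPKM in S87L and 3054 to 3150 FPKM in wild-type cord, with 1 called higher by limma and none lower, although 4 had every S87L library below. The part of these differences in the microRNA result was not tested, and in whole tissue fewer cells of a type and less RNA per cell cannot be told apart.

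In MEF, 29 of the features were tested. By limma 3 were lower, against 6.32% of all 13773 genes, and none was higher at the adjusted or the unadjusted threshold, against 4.91% of all genes. Mir544 had no read in either S87L MEF library, against 2, 3 and 2 reads in wild-type MEF (limma adjusted p = 0.00136). Set against a floor of 3 reads over the group it was at least 1.42-fold lower. Mir431 had none, against 3, 2 and 1 reads (adjusted p = 0.0223, at least 1.22-fold lower), and lost its call without wild-type replicate 2 or either S87L library, at up to 0.106. Mir1188 had 1.81 and 1.45 FPKM in S87L MEF, against 2.44, 3.67 and 3.48 FPKM in wild-type MEF (log2 fold change -0.78, adjusted p = 0.0384). It lost its call without wild-type replicate 2 or 3 or either S87L library, at up to 0.136. A fit without an S87L MEF library has 1 library in that group, which is then assumed to vary like the wild-type ones, and has fewer degrees of freedom. With voom on the recovered reads no feature was called in either direction, and 2 had an unadjusted p under 0.05. Over all features, 43 had a read in MEF, and the mean was lower in S87L in 29 and higher in 14. The median log2 fold change of the 29 tested was -0.40, and 0 where the 6 features with a group at 0 were set to their bound, against -0.01 over all genes. Of the 29, 7 had an S87L mean under 0.5 FPKM, Mir544 and Mir431 among them, and passed the filter through wild-type, so they had to differ, and 1 had a wild-type mean under it.

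Other features with many reads were not called in MEF. Mir434 had 1.54 and 5.56 FPKM in S87L MEF, against 4.67, 0.781 and 4.44 FPKM in wild-type MEF (log2 fold change 0.14, SE 0.84, limma adjusted p = 0.938). Mir341 had 0 and 2.72 FPKM, against 1.53, 1.53 and 0 FPKM (-0.0024, SE 1.08, adjusted p = 0.999). Both overlapped fully, and with SEs this large a difference of the size seen in cord was not detectable. Mir433 had 1.75 and 0.702 FPKM in S87L, against 4.13, 2.96 and 1.68 FPKM in wild-type MEF (-0.99, adjusted p = 0.231). Meg3 had 15.8 and 18.04 FPKM in S87L MEF, against 18.1, 17.6 and 17.6 FPKM in wild-type MEF (-0.07, SE 0.06, adjusted p = 0.492), and Mirg and Rian were not called either (0.13 and 0.12). Dlk1 had 29.2 and 31.8 FPKM in S87L, against 53.5, 50.2 and 49.7 FPKM in wild-type MEF, and was lower (-0.74, SE 0.05, adjusted p = 0.00111). Dio3, the deiodinase at the far end of the domain, had 1.36 and 1.46 FPKM, against 2.24, 2.10 and 2.06 FPKM (-0.46, adjusted p = 0.0210, up to 0.0831 without any library but S87L replicate 2). Rtl1 had 0.0798 and 0.0411 FPKM in S87L MEF, against 0.138, 0.104 and 0.0985 FPKM in wild-type MEF, and was too low to be tested. Pooled microRNA FPKM was 3.41% ± 0.185 of Meg3 FPKM in S87L (n = 2) and 5.14% ± 0.520 in wild-type MEF (n = 3). As in cord, that sets reads mostly outside exons beside reads of exons.

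Whether the genotype effect differed between cord and MEF was tested by an interaction term, fitted with limma over all 11 libraries. Of 41 features tested, 3 had a more negative effect in cord, against 6.14% of 15811 genes. At an unadjusted p under 0.05 there were 10 features in that direction, against 4580 of the 15811 genes in either direction. No feature had a more positive effect at the adjusted or unadjusted threshold or with voom, against 6.98% of all genes at the adjusted one. Mir376c differed by -3.74 (SE 0.66, adjusted p = 0.00772), with 2 and 1 reads in S87L MEF, against 1, 1 and 0 in wild-type MEF. Mir376a differed by -3.44 (adjusted p = 0.0308) and Mir300 by -2.86 (adjusted p = 0.0352). Mir300 had no read in any MEF library and Mir376a had 1, so their interaction restates the cord difference. Mir376a lost the call without 7 of the 11 libraries and Mir300 without 9, at up to 0.0749 and 0.0927, while Mir376c kept it without any of them. Meg3 differed by -1.18 (adjusted p = 5.82e-06), Mirg by -0.97, Rian by -0.36 and Dlk1 by 0.84, and these kept their call with any library left out. Mir544, lower in both tissues, gave an interaction of 0.35 (SE 0.25, adjusted p = 0.395).

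Between the wild-type tissues, 20 of 44 tested features were higher in cord than in MEF. That is near the share of all 15962 genes, of which 47.4% were higher and 40.3% lower, while none of the 44 was lower by limma at the adjusted or unadjusted threshold or with voom. The median log2 difference of the 44 was 1.08, or 1.04 with the 5 features at 0 in a group set to their bound, against 0.12 over all genes. Of the 44, 11 had a wild-type MEF mean under 0.5 FPKM and passed the filter through cord, so they had to be higher there, and 2 passed through MEF. The median and the direction of the calls are in part set by this. Of the 47 features with a read, the mean was higher in wild-type cord in 42. Mir341 had 12.1, 10.6 and 13.5 FPKM in wild-type cord, against 1.53, 1.53 and 0 FPKM in wild-type MEF (log2 difference 3.30, SE 0.58, limma adjusted p = 0.00213). Mir1188 had 15.2, 10.7 and 13.7 FPKM in wild-type cord, against 2.44, 3.67 and 3.48 FPKM in wild-type MEF (1.89, SE 0.18, adjusted p = 5.90e-05). Neither overlapped between tissues.

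Among the wild-type libraries, several features were read in cord alone. Mir300 had 8, 9 and 3 reads in wild-type cord and none in wild-type MEF, at least 5.84-fold higher against a floor of 3 reads over the MEF group (limma adjusted p = 1.28e-04). Mir376a (4, 2 and 6 reads) was at least 3.50-fold higher, and Mir432 (2, 2 and 3 reads) and Mir154 (2, 2 and 3 reads) at least 2.04-fold higher on the same floor. With no read in wild-type MEF, Mir300, Mir376a, Mir432 and Mir154 passed the filter through cord. They had to be higher there, so their calls between tissues add nothing to the read counts. Mir434 and Mir433 were read in both tissues and were not called between them, at log2 differences of 1.45 and 0.78 (limma adjusted p = 0.0530 and 0.0874). Every wild-type cord library was above every wild-type MEF library for Mir434, while the tissues overlapped for Mir433. On the log2 scale, wild-type cord minus wild-type MEF, Meg3 differed by 2.34, Dlk1 by -2.21 and Rian by -0.10.

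Of the 15 genes of microRNA processing, 14 were tested in cord and 3 were lower in S87L, while none was higher by limma. Dicer1, which trims the hairpin, had 3.26, 3.23 and 3.37 FPKM in S87L, against 4.09, 4.17 and 4.01 FPKM in wild-type cord (log2 fold change -0.28, SE 0.05, limma adjusted p = 0.0117, up to 0.0577 without S87L replicate 1 or 2). The helicases Ddx17 and Ddx5, which assist Drosha, fell by 0.19 and by 0.17 (adjusted p = 0.0209 and 0.0359). Ddx17 lost its call without any library but wild-type replicate 1, at up to 0.0782, and Ddx5 without either of wild-type replicates 2 and 3 or S87L replicate 1 or 2, at up to 0.134. Both lost it with median ratio scaling. Drosha (0.14, adjusted p = 0.106), Dgcr8 (-0.05, adjusted p = 0.592) and Ago2 (-0.04, adjusted p = 0.544) were not called. Of the 14, 8 had an unadjusted p under 0.05, against 4546 of all 15648 genes. Voom on the recovered reads called 4 lower and 1 higher. In MEF 13 were tested and none was called by limma, with 1 at an unadjusted p under 0.05, while voom called 1 higher.

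Reported targets of miR-134, whose own gene had no read here, were Limk1, a kinase of the actin cytoskeleton, and Pum2, a translational repressor. Limk1 had 32.3, 31.6 and 28.4 FPKM in S87L cord, against 27.6, 25.9 and 25.2 FPKM in wild-type cord (log2 fold change 0.22, SE 0.06, limma adjusted p = 0.0464, up to 0.150 without either of wild-type replicates 2 and 3 or S87L replicate 1 or 2). Pum2 was not called in cord (0.12, adjusted p = 0.109) and was higher in S87L MEF (0.22, adjusted p = 0.0432, up to 0.143 without any library but S87L replicate 2). Both calls were also lost with quantile normalization or a looser filter. The S87L and wild-type libraries did not overlap in either, and the part of the microRNA features in them was not tested.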

How the data were processed

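RNA sequencing covered 3 S87L and 3 wild-type spinal cord and 2 S87L and 3 wild-type MEF libraries. The values the authors deposited are FPKM, that is, fragments per kilobase of a gene's length and per M fragments. The submitters' processing notes name HTSeq 0.11.3, HISAT2 2.2.1, Trimmomatic 0.39, Picard 2.25.5 and the build GRCm38. The sources do not give the annotation release or the strand setting of counting. Symbols, positions and lengths came from GENCODE for GRCm38, which held 55227 of the identifiers and lacked 260. Sequences came from RefSeq and the annotated transcripts.

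FPKM values moved in steps of 1 read. Dividing by the step gave whole reads (within 0.05) for 98.5% to 98.6% of values per library and for 100% of small features. Pairs of libraries of a group differed beyond counting noise (chi-square per degree of freedom 1.26 to 4.67), and each was counted as 1 replicate.

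Each comparison was fitted with limma 3.58.1 in R 4.3.3 (trend, robust) on log2(FPKM + 0.5), leaving out genes whose mean FPKM was under 0.5, and every adjusted p is Benjamini-Hochberg over all genes of that fit. The script was tested on simulated data. Pooled levels, summed in Python 3.11.15, carry no test. Same-numbered libraries did not deviate together, so no block was used. Named were features with at least 10 reads, features called in any comparison and the long transcripts of the locus. The features, lists and tests were chosen with earlier results of these data known. Alternatives were other pseudocounts, filters and scalings, voom on the recovered reads, a replicate block and leaving out each library.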

Additional observations from a re-analysis of the deposited data

Results flagged for a closer look

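For 3 features the effect of S87L differed between spinal cord and MEF by the interaction term of limma: Mir376c (-3.74), Mir376a (-3.44) and Mir300 (-2.86), each more negative in cord on the log2(FPKM + 0.5) scale. That is 3 of 41 tested, against 6.14% of all genes in that direction, a share near the background. Mir376a lost the call without 7 of the 11 libraries and Mir300 without 9, while Mir376c kept it without any of them. Mir300 had no read in MEF and Mir376a 1 read, so for these the MEF effect could not be measured.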

How the results depend on the processing

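The pooled ratio of S87L over wild-type kept its direction under every alternative run. It was 0.283 in cord as reported, 0.273 to 0.303 with 1 library left out, and 0.246 over the features that overlap no exon of another gene on either strand. In MEF it was 0.630, and 0.565 to 0.695 with 1 library left out. Wild-type cord over wild-type MEF was 2.84, and 2.65 to 3.03. Without features that overlap an exon on their own strand, an alternative chosen after seeing the data, the ratios were 0.282, 0.616 and 2.88.

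Of features called lower in cord, 23 as reported, 15 were called with no filter, 14 to 20 with 1 library left out (14 without wild-type replicate 1, 15 without S87L replicate 2), 16 with voom and 20 with the replicate block. In cord 7 of the 23 were called in all of these and 10 with any library left out. With median ratio scaling 5.59% of all cord genes were called lower and 7.86% higher, and 19 features lower. In MEF, 3 as reported, 1 was called with no filter, 0 with voom, 1 to 4 with 1 library left out (1 without either S87L library) and 3 with the replicate block. Between tissues, 20 higher as reported, 12 were called with quantile normalization, which shifts the median of all genes to -0.11, and 15 to 21 with 1 library left out, when 0 to 1 were lower. In the interaction, 3 lower as reported, 5 were called with the replicate block and 1 to 4 with 1 library left out (1 without S87L cord replicate 1, wild-type MEF replicate 2 or 3, or S87L MEF replicate 2), and 1 higher with a pseudocount of 0.1. Same-numbered libraries correlated at 0.15, -0.05 and 0.11 in cord and -0.07 and -0.03 in MEF. The sign turned for Mir380 in MEF with 1 library left out (-0.90 to 0.58, as reported 0.01), for Mirg between tissues with quantile normalization (-0.23) and for Ddx5 between tissues with median ratio scaling (-0.086). The cause was not tested.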

Other observations

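A further 6 microRNA features of the interval carry names that start with Gm and were not counted with the 60. They held 22 reads over the 11 libraries, at a mean of 0.0283 RPM in S87L and 0.378 RPM in wild-type spinal cord, and of 0 RPM in S87L and 0.0233 RPM in wild-type MEF.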
